A study of Mus musculus with 2 samples.

Results

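Mir191 and Mir425 are a pair of microRNA genes that lie close together on the plus strand of mouse chromosome 9. They were chosen by their names in GENCODE M21, the gene annotation behind the deposited counts, and both were found among the 2202 microRNA genes of the tables. The tissue was left cerebral cortex, taken at 25 days of age from females of the B6CASTF1/J hybrid, a cross of C57BL/6 with the wild-derived CAST, and its small RNAs below 30 nt had been sequenced. A single untreated group was sampled, with 2 libraries numbered as biological replicates 1 and 2. The labels give each library its own animal number and the same donor record, so separate animals rest on those numbers alone, and p-values here compare 2 libraries. Reads on a microRNA gene's own strand summed to 3017058 in replicate 1 and 3209361 in replicate 2. Levels are given in CPM, the counts of a gene scaled to a library total of 1000000 such reads, and the 5p and 3p arms are not counted apart.

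A microRNA gene is transcribed as part of a longer RNA that folds into a hairpin. Cutting of the hairpin releases a short duplex, and 1 strand of it guides an Argonaute protein to messenger RNAs, mainly through the seed, the bases near its 5′ end. miR-191 is found in most tissues, is often used as a reference in microRNA assays, and has been tied to the remodelling of dendritic spines in neurons. miR-425 is known in human cells as a repressor of the atrial natriuretic peptide gene NPPA. Hairpins that sit close together on a strand can be cut from the same primary transcript.

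The mature arms are printed to show which seeds the pair carries and which of them another gene shares. Both genes were matched in the RefSeq microRNA sequences for build GRCm38.p6, the assembly that mm10 is based on, and the seed (bases 2 to 8) is in capitals:
miR-191-5p: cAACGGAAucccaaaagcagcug
miR-191-3p: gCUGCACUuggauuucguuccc
miR-425-5p: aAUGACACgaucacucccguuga
miR-425-3p: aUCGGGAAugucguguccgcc
miR-489-3p: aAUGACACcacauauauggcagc
The 4 arms of the pair have 4 different seeds. Seeds were compared with those of 1738 mature arms from 1058 genes, in which 84.55% of the 1398 different seeds belong to 1 gene. The seeds of miR-191-5p, miR-191-3p and miR-425-3p occurred in no other gene. The seed of miR-425-5p is also that of miR-489-3p, from Mir489 on chromosome 6, which had 0 counts in both libraries. A count of 0 allows up to 3 counts, or 0.994 CPM in replicate 1 and 0.935 CPM in replicate 2. Thus, among genes of the RefSeq sequences, Mir425 supplied all counted reads of a gene with this seed.

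The hairpins, with both mature arms in capitals, differ in length and in where the arms lie:
Mir191: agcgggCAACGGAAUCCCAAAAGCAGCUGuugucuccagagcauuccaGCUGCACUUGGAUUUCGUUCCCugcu
Mir425: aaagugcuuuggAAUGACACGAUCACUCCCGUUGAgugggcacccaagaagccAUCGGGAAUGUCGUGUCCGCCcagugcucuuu
The Mir191 hairpin is 74 nt long, with 19 bases between its arms, and the Mir425 hairpin is 85 nt long, with 18. Their GC contents are 54.05% and 54.12%. The predicted folding energy was -35 kcal/mol for Mir191 and -31.7 kcal/mol for Mir425. In the predicted folds 17 of the 23 bases of miR-191-5p pair with the 3p arm, against 14 of the 23 bases of miR-425-5p. On the same strand, neither hairpin shared a stretch of 20 nt with any other counted microRNA hairpin, and none was found at 18 or 16 nt. Of all 2202 counted hairpins, 1084 shared a stretch of 20 nt with another, so the lack of one does not set the pair apart. All 4 mature sequences occurred on the same strand of 141767 annotated transcripts only in their own gene and in 4833445I07Rik, the noncoding RNA gene around them. Copies outside annotated transcripts were not looked for.

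On mm10, Mir191 (ENSMUSG00000105497.1) occupies chr9:108568319-108568392 and Mir425 (ENSMUSG00000065579.1) occupies chr9:108568777-108568861, with 384 bases between them. The rule for the pair places it in an intron of Dalrd3, a gene for a protein that takes part in tRNA methylation. In GENCODE M21, however, none of the 9 Dalrd3 transcripts reaches back to the pair. Dalrd3 starts at 108569886, with 1024 bases between it and the end of Mir425, and the RefSeq start of Dalrd3 at 108569892 also lies downstream. Both hairpins lie within the noncoding gene 4833445I07Rik (108567533 to 108569174), which is tagged there as a host of noncoding RNAs. Its longer transcript is a single exon of 1642 bases that covers both hairpins. In its other transcript Mir191 lies in the intron between exons 1 and 2, and Mir425 lies downstream, with 2 bases between the end of the transcript and its start. The start of 4833445I07Rik is 98 bases from that of Ndufaf3, an assembly factor of mitochondrial complex I that is transcribed the other way.

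**Figure D1:**
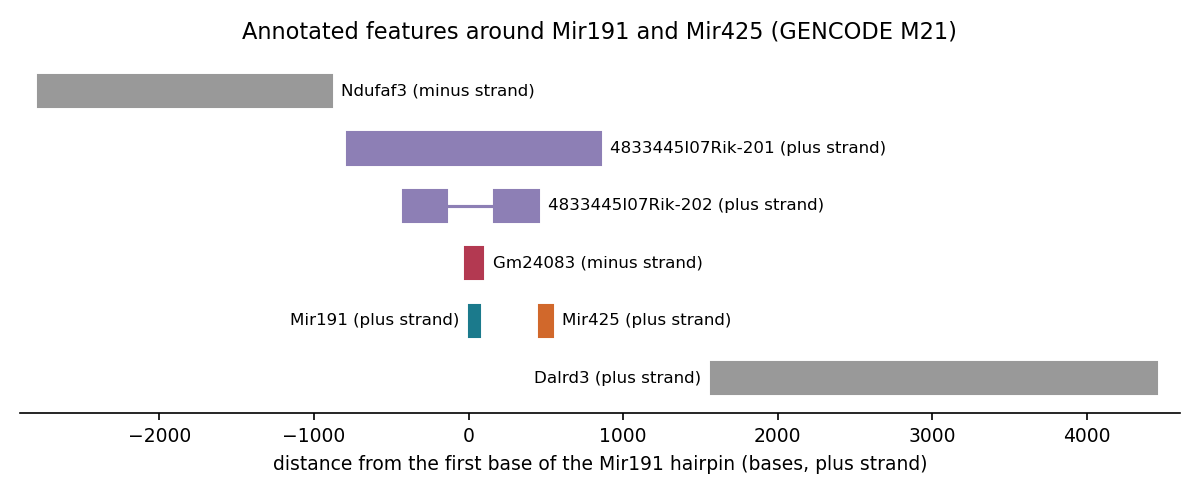
Annotated features in GENCODE M21 by distance from the first base of the Mir191 hairpin, in bases; boxes are genes or, for 4833445I07Rik, exons, and the thin line is an intron. Both hairpins fall within the exon of the single-exon transcript and ahead of Dalrd3, while Gm24083 covers Mir191 on the other strand.

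A further microRNA gene, Gm24083, is annotated on the minus strand at 108568295 to 108568414 and covers the whole of Mir191. It had 0 own-strand counts in both libraries. Mir191 and Mir425 had 0 counts in the opposite-strand column of both libraries, so every stranded read at these hairpins ran in the direction of the pair. In the deposited column for reads on either strand, Mir191 had 0 counts in both libraries, although it had 28974 and 23622 counts on its own strand. Mir425, which no gene overlaps on the minus strand, had the same counts in both columns, 1473 and 2965. In all, 26 detected genes (at least 10 own-strand counts in both libraries) kept under 1% of their own-strand counts in the either-strand column, and all 26 are overlapped by a microRNA gene on the other strand.

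By counted reads, Mir191 was among the most abundant microRNA genes of this cortex, and Mir425 was about an order of magnitude below it. Mir191 had 28974 counts, or 9603 CPM, in replicate 1 (exact 95% interval 9494 to 9714) and 23622 counts, or 7360 CPM, in replicate 2 (7267 to 7454). Its mean was 8482 ± 1586 CPM (SD, n = 2), which is 0.848% ± 0.159 of counted reads. Mir425 had 1473 counts, or 488 CPM, in replicate 1 (464 to 514) and 2965 counts, or 924 CPM, in replicate 2 (891 to 958), with a mean of 706 ± 308 CPM (SD, n = 2). Replicate 1 was the higher library for Mir191 and the lower one for Mir425, and the values of the 2 genes were far apart in both. All intervals here describe the counting error of reads alone. PCR copies are not separate molecules, so even that error can be understated.

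By mean CPM, Mir191 ranked 26 and Mir425 ranked 120 of the 2202 genes, of which 395 were detected. Reads placed at several loci, 40.3% of replicate 1 and 39.0% of replicate 2, are in no gene's count. Genes with copies at several loci can therefore rank too low, such as Mir26a-1 with 213 and 25 counts. Mir191 lay above 94.7% of the detected genes in replicate 1 and above 92.7% in replicate 2. Mir425 lay above 67.8% and 72.9%. Among the 96 microRNA genes of chromosome 9, 17 were detected, and Mir191 was second to Mirlet7g, a member of the let-7 family, at 69802 and 61365 CPM. Mir425 ranked 7 on that chromosome. The closest other microRNA genes that do not overlap the pair, Gm47303 upstream at 465072 bases and Gm26298 downstream at 84746 bases, had 0 counts in both libraries.

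The order of levels around each gene was not resolved by 2 replicates. The next genes above Mir191 were Mir151 at 9055 ± 767 CPM, Mir99b at 9001 ± 2049 CPM and Mir23a at 8833 ± 1029 CPM (SD, n = 2). The next below were Mir328 at 8339 ± 2240 CPM, Mir126a, an endothelial microRNA gene, at 7275 ± 2207 CPM and Mir30d at 6628 ± 2502 CPM. All 6 overlapped the range of Mir191 between its replicates, as did 13 genes in total. Above that range lay 17 genes and below it 2171.

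Around Mir425, the range between replicates was wider relative to its level. Mir1839 at 723 ± 313 CPM, Mir146, an NF-kB induced immune microRNA gene, at 715 ± 2.59 CPM and Mir1981 at 712 ± 2.75 CPM stood just above it. Mir326 at 700.03 ± 260 CPM, Mir15a at 681 ± 573 CPM and Mir490 at 603 ± 40.9 CPM stood just below. Again all 6 overlapped the range of Mir425, as did 46 genes in total, with 95 above and 2060 below.

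The gene most like each of the pair was taken as the one with the smallest difference in log2 CPM, summed over both libraries. For Mir191 it was Mir23a, a microRNA gene rich in astrocytes, at 9561 and 8106 CPM, with a summed difference of 0.15. For Mir425 it was Mir326 at 516 and 884 CPM, with a summed difference of 0.15. This likeness rests on 2 libraries, and the rule takes the best match among all genes with counts in both.

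**Figure D2:**
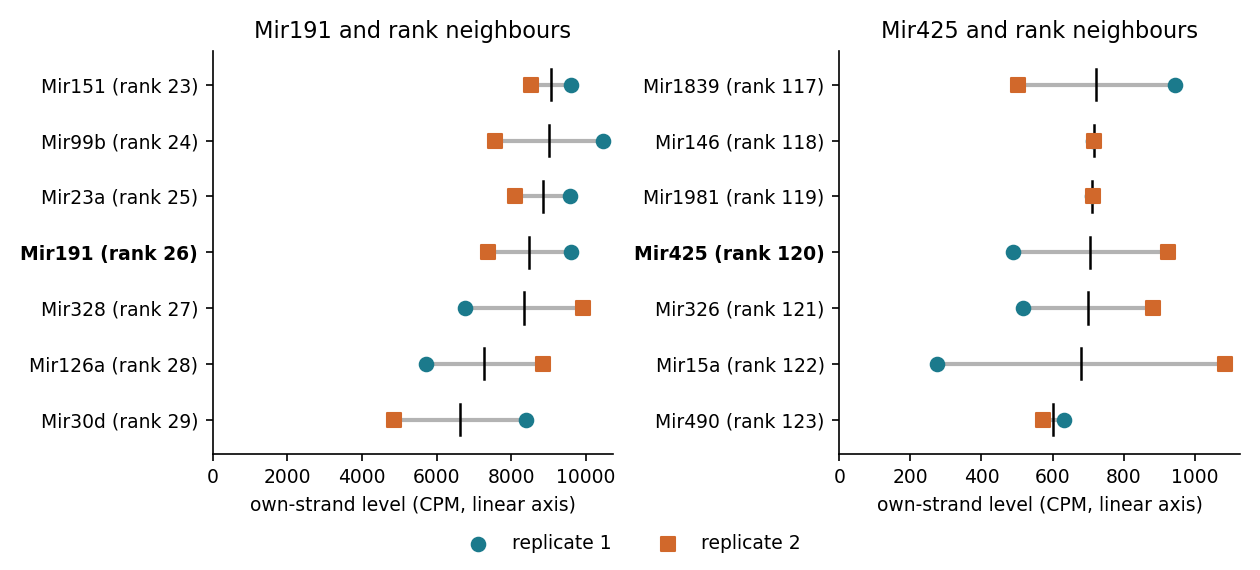
Level of Mir191 (left) and Mir425 (right) with the 3 genes ranked next above and below each, in own-strand CPM on linear axes; circles are replicate 1, squares replicate 2, and the black bar is their mean. Replicate 1 is the higher library for Mir191 and the lower one for Mir425, and the ranges of the neighbours overlap theirs.

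The libraries differed in both genes by more than counting error, and in opposite directions. A two-sided exact binomial test, with library sizes scaled by TMM, was run on each of the 496 genes that reached a total of 10 counts. For Mir191 the log2 ratio of replicate 2 over replicate 1 was -0.61 (95% interval -0.64 to -0.59), a 1.53-fold lower level in replicate 2. Its exact p was below the smallest number the program holds, with a −log10 of 514, and the −log10 of the Benjamini-Hochberg adjusted value was at least 511.7. For Mir425 the log2 ratio was 0.69 (0.60 to 0.78), a 1.61-fold higher level in replicate 2 (exact binomial test, adjusted p = 1.65e-52).

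A call of this kind was common. The test called 56.5% of the genes tested, 30.6% as higher in replicate 1, like Mir191, and 25.8% as higher in replicate 2, like Mir425, so a call alone does not set the pair apart. TMM scaling moved all log2 ratios by -0.23 against library totals. With library totals Mir191 was still 1.30-fold lower in replicate 2 (log2 ratio -0.38) and Mir425 1.89-fold higher (0.92). With totals, the balance of all calls turned from 54.29% to 36.17% higher in replicate 1.

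Among genes of like abundance, Mir191 stood closer to the middle than Mir425 in the size of the difference. Of 31 genes with a mean within 2-fold of that of Mir191, all 31 were called, their median absolute log2 ratio was 0.52, and 13 had one at least as large as that of Mir191. Of 60 genes within 2-fold of Mir425, 48 were called, the median was 0.37, and 16 had one at least as large as that of Mir425. On library totals 17 of the 31 were at least as far apart as Mir191, with a median of 0.46, and 14 of the 60 as Mir425, with a median of 0.35. Across the 496 genes tested the biological coefficient of variation was 36.7%, and animals and library preparations cannot be told apart in it.

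**Figure D3:**
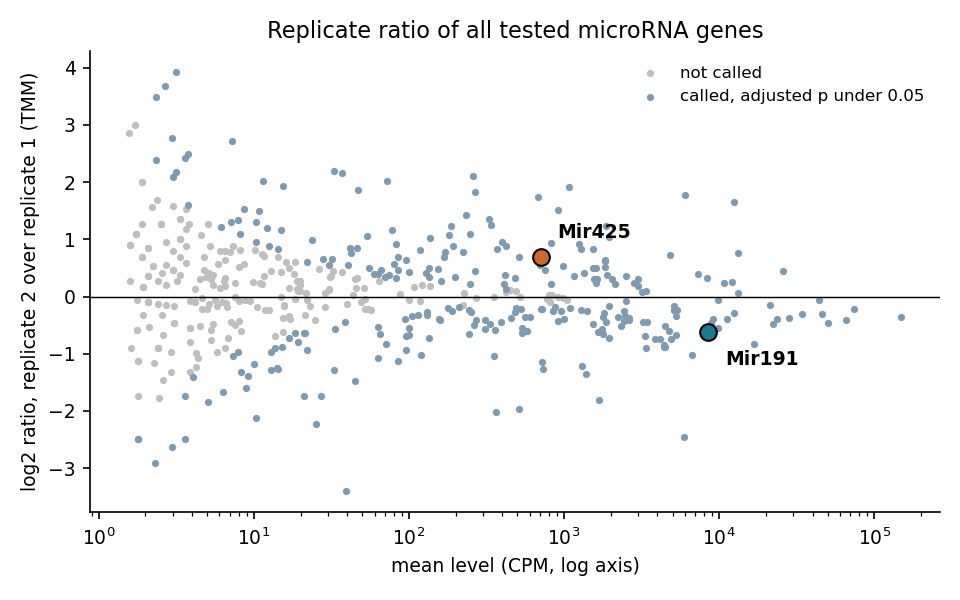
Log2 ratio of replicate 2 over replicate 1 after TMM scaling against mean CPM (log axis) for the 493 tested genes with counts in both libraries; darker points passed the exact binomial test at an adjusted p under 0.05, and bars on the 2 named genes are 95% counting intervals, smaller than the points. Mir425 lies above the zero line at 0.69 and Mir191 below it at -0.61, both inside the cloud of other genes.

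The ratio within the pair needs no scaling between libraries. Mir191 had 19.7 times the counts of Mir425 in replicate 1 and 7.97 times in replicate 2, or 4.30 and 2.99 on the log2 scale, with a mean of 3.65 ± 0.92 (SD, n = 2). Mir425 made up 4.84% of the counts of the pair in replicate 1 (exact 95% interval 4.60 to 5.08) and 11.2% in replicate 2 (10.8 to 11.5). The sum of both genes was 10092 CPM in replicate 1 and 8284 CPM in replicate 2. Mir191 was the more abundant gene in both libraries, and the size of its excess differed between them.

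Between the libraries the log2 ratio of Mir191 to Mir425 differed by -1.30 (replicate 2 minus replicate 1, 95% counting interval -1.40 to -1.21), a 2.47-fold change. Fisher's exact test on the 4 counts, adjusted over 84 neighbouring pairs, gave an adjusted p of 7.59e-174. These 84 pairs are consecutive microRNA genes on 1 strand at most 10 kb apart with at least 10 counts of each gene in each library. The same test called 82.1% of them, and 45.2% with the ratio lower in replicate 2, the direction of Mir191 and Mir425.

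Among neighbouring pairs, the imbalance of Mir191 and Mir425 was close to the middle, and the difference between libraries was in the upper part. The higher gene exceeded the lower by a median of 9.51-fold in mean CPM, against 12.01-fold for Mir191 over Mir425, and 35 of the 84 pairs (41.67%) were further out of balance. The median absolute difference in log2 ratio between libraries was 0.77, and 16 pairs (19.05%) had a larger one than Mir191 and Mir425. In 52 pairs (61.90%) the genes had log2 ratios of opposite sign, and in 50 on library totals. Both genes were called in opposite directions in 35 pairs, or 41.7%, and the pair was one of them. The 84 pairs are made up of 124 genes, so many genes are shared between pairs and the pairs are not independent. Many of them lie in the region of chromosome 12 that holds Mir127 and Mir433, and the shares given here and above rest largely on it. Reads placed at several loci are in no count, which can also set a pair further out of balance. How far these points moved the shares was not tested.

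Pairs with at least 1000 counts of each gene in each library carry less counting error. There were 27 such pairs, with a median imbalance of 3.94-fold, and 8 were further out of balance than Mir191 and Mir425. Only 3 of the 27 pairs had a larger difference between libraries, against a median of 0.78 on the log2 scale. This minimum was chosen after the values were seen.

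A list of 28 pairs of microRNA genes known as neighbours gave 24 with at least 10 counts of each gene in each library, the pair included. Mir200c and Mir141, Mir206 and Mir133b, Mir224 and Mir452, and Mir194-2 and Mir192 fell short. Of the 24, the higher gene was further above the lower in 12 than Mir191 was above Mir425, and the median imbalance was 13.1-fold. Reads placed at several loci are in no count. This can lower a gene with a copy at another locus, such as Mirlet7f-1 or Mir29b-1, and set its pair further out of balance. How far it did so was not tested. By summed counts Mir191 and Mir425 ranked 7 of the 28.

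Among the 5 pairs with the most counts, the gene that led was the same in both libraries in 4. Mir127 exceeded Mir433, its neighbour in the imprinted Dlk1-Dio3 region, 2.26-fold in replicate 1 and 2.03-fold in replicate 2. Mir132, an activity-regulated neuronal gene, exceeded Mir212 by 42.2-fold and 19.1-fold. Mirlet7d exceeded Mirlet7f-1 by 121-fold and 217-fold.

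Mir23b exceeded Mir27b by 18.8-fold in replicate 1 and 10.96-fold in replicate 2, the imbalance next above that of Mir191 and Mir425. Next below came Mir143 over Mir145a, smooth muscle microRNA genes, at 6.95-fold and 14.8-fold. Mir125a and Mir99b changed order, with Mir125a at 0.848 times Mir99b in replicate 1 and 2.32 times in replicate 2. In 13 of the 24 pairs the ratio was lower in replicate 2, as for Mir191 and Mir425. The 3 pairs with a larger absolute difference in log2 ratio between libraries were Mir15a with Mir16-1 at 1.56, Mir125a with Mir99b at 1.45, and Mir34c with Mir34b at -1.31. Mir34b had only 16 and 24 counts, and -1.31 lies within the 95% counting interval of Mir191 and Mir425, -1.40 to -1.21.

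**Figure D4:**
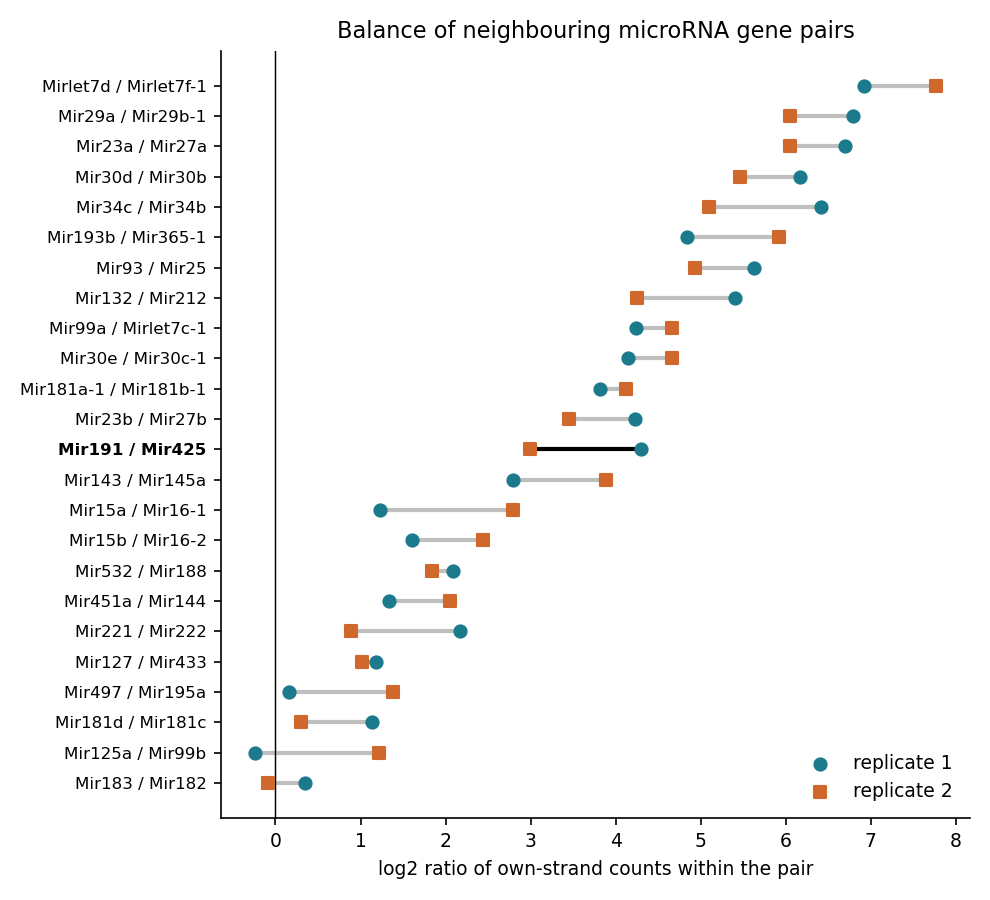
Log2 ratio of own-strand counts within 24 pairs of neighbouring microRNA genes, the gene with the higher mean CPM named first, in replicate 1 (circles) and replicate 2 (squares), ordered by the ratio of mean CPM. Mir191 over Mir425 lies at 4.30 and 2.99, near the middle of the order, with 1 of the longer lines.

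Marker microRNA genes of the tissue were read beside the pair, since Mir191 and Mir425 are not bound to 1 cell type and bulk tissue cannot tell fewer cells of a type from less RNA per cell. The neuron list held 21.6% ± 0.738 of counts (SD, n = 2), most of them from Mir139 at 155820 and 141898 CPM. The list had 16 of 20 genes detected, all but Mir124a-1, Mir124a-2, Mir124a-3 and Mir9-2, and a median mean level of 324 CPM. Of its 20 genes, 3 had a higher mean CPM than Mir191 and 9 a higher one than Mir425. Reads placed at several loci are in no gene's count, so listed genes with copies at several loci can be counted too low. Among them are Mir9-1, with 40 and 22 counts, and Mir9-3, with 259 and 181, so their place below Mir191 is one of counted reads only. The astrocyte list held 3.79% ± 0.360, with all 4 genes detected, and the oligodendrocyte list 0.464% ± 0.139, with Mir219a-2 at 2371 and 3257 CPM. Most listed genes of neurons, astrocytes and oligodendrocytes were thus detected, but none of the Mir124a genes of the neuron list was. Why these fell short was not tested.

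The marker lists did not move one way between the libraries. Of all 496 genes tested, 30.6% were called higher in replicate 1 and 25.8% higher in replicate 2 with TMM, against 20.6% and 36.3% with library totals. The neuron list was split, with 8 of 18 tested genes called higher in replicate 1 and 7 higher in replicate 2 with TMM, and a median log2 ratio of 0.0060. All 5 immune and microglial genes were called higher in replicate 1 with TMM and 3 of 5 with library totals, with median log2 ratios of -0.56 and -0.33, and Mir150, a lymphocyte gene, was at 1967 and 1562 CPM. All 3 oligodendrocyte genes were called higher in replicate 2 with either scaling, with medians of 0.65 and 0.87, and Mir338 was at 1289 and 2364 CPM. Only 2 of the 3 were detected, as Mir219a-1 had 3 and 17 counts. The median over the 496 genes tested was -0.0090 with TMM and 0.22 with library totals. Summed levels were 2844 and 2401 CPM for the immune list and 3662 and 5626 CPM for the oligodendrocyte list. The astrocyte list, at 40435 and 35344 CPM, had 3 of 4 genes called higher in replicate 1 with either scaling. The endothelial and mural list held 1.23% ± 0.0391 of counts (SD, n = 2), at 12012 and 12565 CPM. Of its 3 genes, Mir143 and Mir145a were called higher in replicate 1 and Mir126a higher in replicate 2. Their median log2 ratio was -0.89 with TMM and -0.66 with library totals. Red blood cell genes held 51.0 and 75.4 CPM, and the liver and muscle genes 95.5 and 92.9 CPM. The part of these cell types in the levels of Mir191 and Mir425 was not tested.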

How the data were processed

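The deposited tables hold raw read counts per microRNA gene for 2 libraries, on mm10 with GENCODE M21 per the labels and the notes deposited by the authors. For aligner and counter, a name is not given in the sources used here. Without a header, the roles of the 3 count columns (either strand, own strand, opposite strand) were read from the values. The 4 classes of reads given to no gene were left out of library sizes. They included reads placed at several loci, 40.3% of replicate 1 and 39.0% of replicate 2. Own-strand counts were 35.5% and 34.5% of the 8491339 and 9289252 reads.

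CPM, exact Clopper-Pearson intervals, an exact binomial test per gene and Fisher's exact test per pair were computed with Python 3.11.15 and scipy 1.17.1. Scaling factors and dispersion came from edgeR 4.0.16 (TMM), with DESeq2 1.42.0 as an alternative, and folds of hairpins from ViennaRNA 2.7.2. The binomial test was tested on simulated counts that held counting error alone. Spread between replicates beyond that error was not simulated. Genes or pairs were called at a Benjamini-Hochberg adjusted p under 0.05. Other genes were named by rule: 3 rank neighbours on each side, the closest pattern, the closest genes on the chromosome, the 5 pairs with the most counts, those next in balance, and up to 3 highest members of each cell type list. Gm24083, Mirlet7g, Mir489, the pairs that fell short and those that differed most were named after their values were seen. The pair of genes and all lists were chosen with earlier results of these data known. Alternatives were the either-strand column, other denominators and scalings, other count minimums and distances, shorter shared stretches, and leaving out each replicate.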

Additional observations from a re-analysis of the deposited data

Results flagged for a closer look

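Gm24083 drew attention because of a signal in the opposite-strand column, which was read above only for Mir191 and Mir425 and enters no level or test. There it held 28974 counts in replicate 1 and 23622 in replicate 2, against 0 on its own strand. These are exactly the own-strand counts of Mir191, which it covers on the other strand. The 26 detected genes that nearly vanish from the either-strand column held 198608 and 215411 own-strand counts, and that column lists 198617 and 215418 ambiguous reads. The counts of Mir191 equal 14.59% and 10.97% of these.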

How the results depend on the processing

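Of 29 alternative values that keep both libraries, 23 stayed within the spread between replicates or on the same side of the threshold with the same sign, or, for counts of genes or pairs, within 1.5 times. In the either-strand column Mir191 fell to 0 CPM (rank 729), because a read over 2 genes on opposite strands is ambiguous there, so its replicate ratio, the ratio to Mir425, the difference of that ratio and the ordering of pairs had no value. With all reads as the denominator Mir191 was at 2978 CPM and Mir425 at 246 CPM. With at least 100 counts of each gene, 23 of 63 neighbouring pairs were further out of balance, and with at least 1000, a minimum chosen after the values were seen, 8 of 27 were, against 35 of 84. Leaving out a replicate leaves 1 library, and with 2 the mean cannot then move by more than their SD, so this shows the range only. It gave 7360 to 9603 CPM for Mir191, 488 to 924 CPM for Mir425, 2.99 to 4.30 for their log2 ratio, and 26 of 86 to 42 of 85 pairs further out of balance. The replicate ratio ran from -0.61 to -0.38 for Mir191 and from 0.69 to 0.92 for Mir425 over scalings and filters, and every one was called. Between 238 and 282 genes were called. With 1 group, no paired analysis was possible because there is no second group to pair with. Counting error was small for both genes, and the number of libraries limits precision.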
